A study of Mus musculus with 10 samples.

Results

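The 8 genes described here are the core of the Hedgehog pathway: the ligands *Shh* and *Ihh*, the receptor *Ptch1*, the signal transducer *Smo*, the inhibitor *Sufu* and the transcription factors *Gli1*, *Gli2* and *Gli3*. They are 8 of 21938 protein-coding genes of the mouse annotation, and were picked by name with the promoter peaks of these same libraries already known, so presence, width and rank of their peaks are given as a description and without a test. A gene was counted as marked in a library where at least 1 bp of an H3K4me3 peak fell between 1000 bp upstream and 100 bp downstream of any of its transcription start sites (TSSs). H3K4me3 is a histone modification found at promoters of transcribed genes, and CUT&Tag maps it with an antibody that brings the transposase Tn5 to the modified chromatin. The study classed promoters with this mark alone as poised, and as active only those that also carried the mark H3K27ac. A peak here does not by itself mean that the gene is transcribed. Naive extra-embryonic endoderm (nEnd) is a culture of primitive endoderm (PrE), the lineage that sits beside the epiblast (Epi) in the blastocyst.

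All 10 libraries came from untreated nEnd made from a single mouse embryonic stem cell line, the OCT4-mCherry reporter line, and expanded on mouse embryonic fibroblasts in a medium with Activin A, CHIR99021 and LIF. Cells were sorted by FACS on the OCT4 reporter and on surface PDGFRA into Oct4+ nEnd (4 libraries), double positive or DP nEnd (3 libraries) and Pdgfra+ nEnd (3 libraries). The study calls its replicates biological, but no source used here ties the numbered libraries of a population to separate cultures, and a p-value below measures the spread between these libraries. Each library is a bulk of sorted cells, in which fewer cells with a mark and less of the mark per cell cannot be told apart.

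In the Hedgehog pathway a secreted ligand binds the receptor PTCH1, which without ligand keeps the membrane protein SMO inactive. While SMO is inactive, GLI3 is processed into a repressor of target genes. Active SMO, at the primary cilium, stops this processing and frees full-length GLI proteins, GLI2 above all, from SUFU to activate targets such as *Gli1* and *Ptch1*. In the mouse embryo *Ihh* is the ligand known from the visceral endoderm, the tissue that PrE gives rise to.

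The promoters of 3 members are shown because the contrasts between populations turn on them: *Gli2*, marked in Oct4+ nEnd, *Ihh*, marked in DP and Pdgfra+ nEnd, and *Ptch1*, marked everywhere. Each is the 250 bases before the RefSeq start on GRCm38.p6, on the minus strand, read 5′ to 3′ with every CpG in capitals. The intervals are chr1:119053620-119053869 for *Gli2*, chr1:74951673-74951922 for *Ihh* and chr13:63565736-63565985 for *Ptch1*, and they hold 22, 24 and 41 CpGs.
Gli2: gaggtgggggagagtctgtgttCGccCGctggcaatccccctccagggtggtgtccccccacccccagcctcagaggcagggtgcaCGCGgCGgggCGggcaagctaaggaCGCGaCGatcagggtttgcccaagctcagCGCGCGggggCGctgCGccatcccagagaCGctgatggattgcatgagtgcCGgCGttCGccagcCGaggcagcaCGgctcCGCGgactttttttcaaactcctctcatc
Ihh: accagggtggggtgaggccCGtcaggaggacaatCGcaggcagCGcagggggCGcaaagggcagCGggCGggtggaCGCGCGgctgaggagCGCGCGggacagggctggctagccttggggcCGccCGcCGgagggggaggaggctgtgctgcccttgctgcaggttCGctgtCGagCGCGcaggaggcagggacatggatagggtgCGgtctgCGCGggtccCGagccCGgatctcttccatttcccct
Ptch1: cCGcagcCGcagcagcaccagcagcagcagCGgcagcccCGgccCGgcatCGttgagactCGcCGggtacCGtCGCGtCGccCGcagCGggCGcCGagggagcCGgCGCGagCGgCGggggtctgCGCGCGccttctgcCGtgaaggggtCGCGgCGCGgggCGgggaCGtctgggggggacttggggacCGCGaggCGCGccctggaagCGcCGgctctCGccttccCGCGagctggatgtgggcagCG
No exon of the annotation used here falls in these 3 stretches.

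The libraries held from 3477 to 10545 peaks, of which 90.8% to 97.3% overlapped a promoter, and marked from 18.3% to 50.8% of protein-coding genes. Oct4+ nEnd replicate 3 had the fewest peaks and the lowest coverage. Replicate 4 of Oct4+ nEnd came next, with 4887 peaks and 25.2% of genes marked, beside 9144 and 8098 peaks in replicates 1 and 2. Within Oct4+ nEnd, *Smo*, *Gli3*, *Lrp2* and *Btrc* lacked a peak in exactly replicates 3 and 4. The part of the low peak numbers in this was not tested. The consensus peaks deposited for Oct4+ nEnd were rebuilt exactly, 7860 of 7860, from replicates 1, 2 and 4, and the means of the members in Oct4+ nEnd are also given without replicate 3. The labels held at the marker promoters. All 4 Epi markers (*Pou5f1*, *Nanog*, *Sox2* and *Esrrb*) were marked in every library of Oct4+ and DP nEnd, with summed percentiles of 394.5 to 397.8 and 149.1 to 185.5, and 0 of 4 in any Pdgfra+ nEnd library. All 5 PrE markers (*Gata4*, *Sox17*, *Foxa2*, *Pdgfra* and *Dab2*) were marked in every DP and Pdgfra+ nEnd library, with summed percentiles of 480.9 to 488.2 and 442.0 to 492.8, and 0 to 3 of them in Oct4+ nEnd. Of 15 fibroblast markers 0 or 1 was marked per library (*Twist1*, no higher than the 13.0 percentile), and *Col1a1*, *Col1a2* and *Col3a1* were at 0 in all 10.

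The signal is unscaled coverage, and a peak is therefore ranked only within its own library. Its percentile runs from near 0 for the weakest peak to 100 for the strongest, and a gene with no promoter peak is set to 0. Total signal adds up the coverage along the whole peak and so grows with its width. No peak means no peak above the caller's limit against IgG, not the absence of the mark. The lowest total signal of any peak was 15732 to 29610 in the Oct4+ nEnd libraries, 50231 to 53198 in DP nEnd and 25245 to 27191 in Pdgfra+ nEnd. The number of reads is unknown.

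The clearest contrast among the members was between 2 genes on chromosome 1. *Gli2* had a promoter peak in 4 of 4 libraries of Oct4+ nEnd, 0 of 3 of DP nEnd and 0 of 3 of Pdgfra+ nEnd. *Ihh* had one in 0 of 4, 3 of 3 and 3 of 3. *Ptch1* and *Sufu* were marked in all 10 libraries and *Smo* in 2 of 4, 3 of 3 and 3 of 3. *Gli3* was marked in 2 of 4, 2 of 3 and 1 of 3, *Gli1* in 1 of 4, 0 of 3 and 1 of 3, and *Shh* in none of the 10. The plot of percentiles by library shows these patterns.

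**Figure D1:**
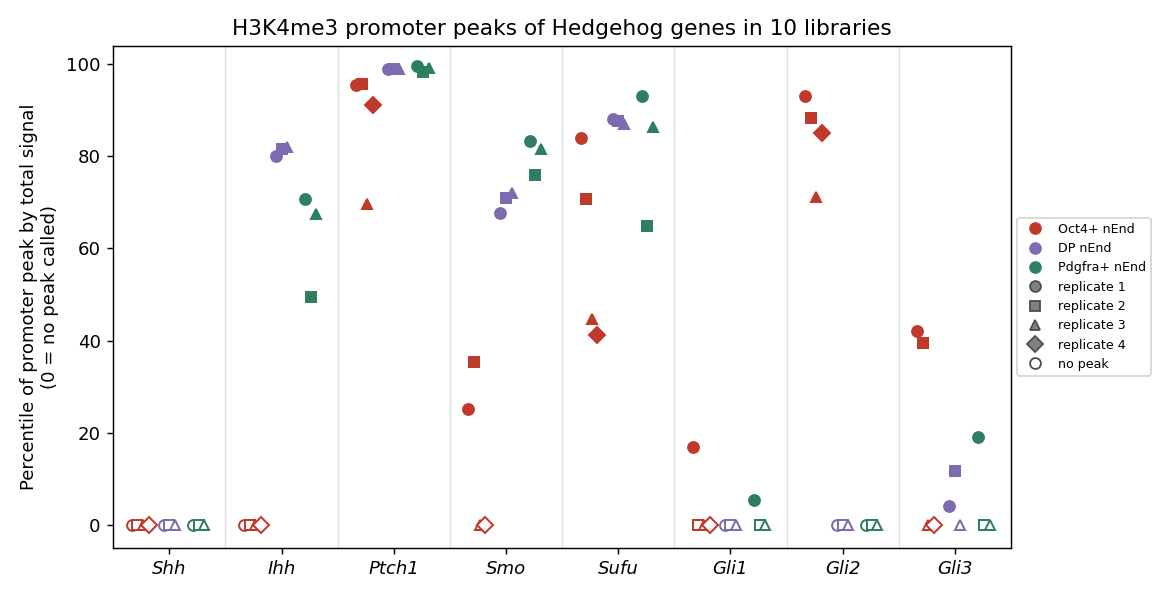
Percentile of the promoter peak by total signal within its library (vertical axis, 0 to 100) for the 8 Hedgehog genes (horizontal axis). Each point is 1 library, with colour for the population and shape for the replicate number, and open points at 0 are libraries with no promoter peak. *Gli2* is above 71 in all 4 Oct4+ nEnd libraries and 0 in the other 6, while *Ihh* is 0 in Oct4+ nEnd and 49.4 to 81.9 in the other 6.

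Of the members, 1 (*Gli2*) was marked in every library of Oct4+ nEnd and in none of DP nEnd, a rule met by 0.201% of all protein-coding genes. *Gli2* alone also met it against Pdgfra+ nEnd, where the share of all genes was 0.356%. In the opposite direction *Ihh* was the 1 member marked in every DP nEnd library and no Oct4+ nEnd library (1.93% of all genes). It was again the 1 member marked in every Pdgfra+ nEnd library and no Oct4+ nEnd library (1.42% of all genes). Between DP and Pdgfra+ nEnd, 0 members met the rule in either direction (0.109% of all genes higher in DP nEnd and 0.00456% higher in Pdgfra+ nEnd). Without any 1 library the same members met it, as a gene that meets the rule must when a library is left out, but the shares of all genes moved. Without Oct4+ nEnd replicate 3, 0.451% and 0.597% of all genes were marked in Oct4+ nEnd alone against DP and Pdgfra+ nEnd, and without Pdgfra+ nEnd replicate 1 the latter was 0.711%. Without Oct4+ nEnd replicate 1 the shares in the opposite direction were 3.46% for DP nEnd and 2.55% for Pdgfra+ nEnd, and without Pdgfra+ nEnd replicate 2 that for Pdgfra+ nEnd was 2.84%. Between DP and Pdgfra+ nEnd the share marked in DP nEnd alone was 1.14% without Pdgfra+ nEnd replicate 1 and was 0.109% to 0.173% without any other library. The share marked in Pdgfra+ nEnd alone was 0.141%, 0.0912% and 0.0319% without Pdgfra+ nEnd replicate 2, DP nEnd replicate 2 and Pdgfra+ nEnd replicate 3, and 0.00456% without any other. Members were chosen with these peaks known, so nothing is read from the counts beyond the values.

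The 2 ligands differed from each other. *Shh* (ENSMUSG00000002633.4, chr5:28456815-28467256, minus strand), the ligand of the notochord and limb, had no promoter peak and no peak in its gene body in any library. Its nearest peak lay 146423 to 149086 bp away, at the promoter of *Rbm33*, in 9 libraries and 393900 bp away in Oct4+ nEnd replicate 3. Here and for the other members, distances to the nearest peak run from the 5′ end of the gene as annotated.

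*Ihh* (ENSMUSG00000006538.12, chr1:74945315-74951672, minus strand), the Indian hedgehog ligand, lay at the 80.1, 81.7 and 81.9 percentiles by total signal in DP nEnd replicates 1, 2 and 3. In Pdgfra+ nEnd replicates 1, 2 and 3 it lay at 70.6, 49.4 and 67.6. Every DP nEnd library was above every Pdgfra+ nEnd library, and all 4 Oct4+ nEnd libraries were at 0, so the 3 populations did not overlap. DP nEnd averaged 81.3 ± 0.979 and Pdgfra+ nEnd 62.6 ± 11.5 (SD, n = 3 each), a difference of 18.7 points (12.1 without Pdgfra+ nEnd replicate 2). With equal numbers of peaks per library the *Ihh* difference of DP minus Pdgfra+ nEnd was 41.4 points, and the differences of Oct4+ nEnd, at 0, were −55.9 from DP nEnd and −14.5 from Pdgfra+ nEnd. When peaks were ranked by highest coverage the values were 47.8, 53.4 and 41.7 for DP nEnd and 39.6, 8.44 and 26.2 for Pdgfra+ nEnd, still without overlap. The *Ihh* peak was broad, 5351 to 6293 bp wide in DP nEnd, where it covered 62.6% to 77.6% of the gene. It was 3841 to 5057 bp wide in Pdgfra+ nEnd, over 45.9% to 51.7% of the gene. Ranked by width within the library, the populations overlapped, with means of 84.1 in DP nEnd (80.8 to 86.3) and 87.2 in Pdgfra+ nEnd (78.5 to 94.3). Width and height of the *Ihh* peak disagreed in rank: the percentile by width was above that by highest coverage in 6 of 6 peaks. In Oct4+ nEnd the nearest peak to the 5′ end of *Ihh* lay 91682 and 94441 bp away in replicates 1 and 2, at *Cdk5r2*, and 239310 and 239268 bp away in replicates 3 and 4. A transcript of unconfirmed coding status, *Gm37744*, has a start under the *Ihh* peak in 1 of the 6 libraries.

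*Ptch1* (ENSMUSG00000021466.12, chr13:63508328-63573598, minus strand), the receptor, had the highest mean percentile by total signal of the 8 members in each population. Its percentiles in Oct4+ nEnd replicates 1 to 4 were 95.5, 95.7, 69.7 and 91.1. DP nEnd had 98.9, 99.1 and 99.0, and Pdgfra+ nEnd had 99.6, 98.3 and 99.1. All 4 Oct4+ nEnd libraries were below the other 6, and DP and Pdgfra+ nEnd overlapped. The means were 88.0 ± 12.4 (SD, n = 4) in Oct4+ nEnd, 94.1 ± 2.61 (SD, n = 3) there without replicate 3, and 99.0 in both DP and Pdgfra+ nEnd (SD 0.0770 and 0.677, n = 3 each). By highest coverage *Ptch1* lay at 48.2 to 58.9 in Oct4+ nEnd and at 77.7 to 85.3 in DP nEnd. In Pdgfra+ nEnd it lay at 90.7, 56.1 and 86.2, and replicate 2 was within the range of Oct4+ nEnd. The peak took in 5 of the 10 *Ptch1* TSS windows in 9 libraries and 7 in Pdgfra+ nEnd replicate 1, where it was widest at 12320 bp. It was narrowest in Oct4+ nEnd replicate 3 at 3600 bp. The point of highest coverage lay 1433 to 2386 bp downstream of the RefSeq start in Oct4+ nEnd and 550 to 1044 bp downstream in the other 6 libraries, so the 4 Oct4+ nEnd libraries did not overlap the rest in this position either. In 7 of 10 libraries the peak also covered a start of *A930032L01Rik*, a transcript of unconfirmed coding status.

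*Smo* (ENSMUSG00000001761.7, chr6:29735503-29761365, plus strand), the transducer that PTCH1 holds inactive, had percentiles of 25.2, 35.4, 0 and 0 in Oct4+ nEnd replicates 1 to 4. In DP nEnd they were 67.7, 71.0 and 72.0, and in Pdgfra+ nEnd 83.4, 76.0 and 81.6. The 3 populations did not overlap by total signal, with means of 15.1 ± 18.0 (SD, n = 4; 20.2 ± 18.2 without replicate 3, n = 3), 70.2 ± 2.23 and 80.3 ± 3.84 (SD, n = 3 each). By highest coverage DP nEnd (86.7, 82.6 and 87.8) and Pdgfra+ nEnd (89.6, 61.1 and 93.6) overlapped, with means of 85.7 for DP nEnd and 81.4 for Pdgfra+ nEnd, the opposite order. With equal numbers of peaks per library the difference of Oct4+ minus DP nEnd went from −55.1 to −29.9 points and that of DP minus Pdgfra+ nEnd from −10.1 to −24.6. *Smo* peaks were tall for their width. Their percentile by highest coverage was above that by width in all but 1 of 8 peaks, and in Oct4+ nEnd the 2 peaks, 2286 and 2112 bp wide, lay at the 2.79 and 4.52 percentiles by width. In Oct4+ nEnd replicates 3 and 4 the nearest peak was 31536 and 31867 bp away, at *Ahcyl2*.

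**Figure D2:**
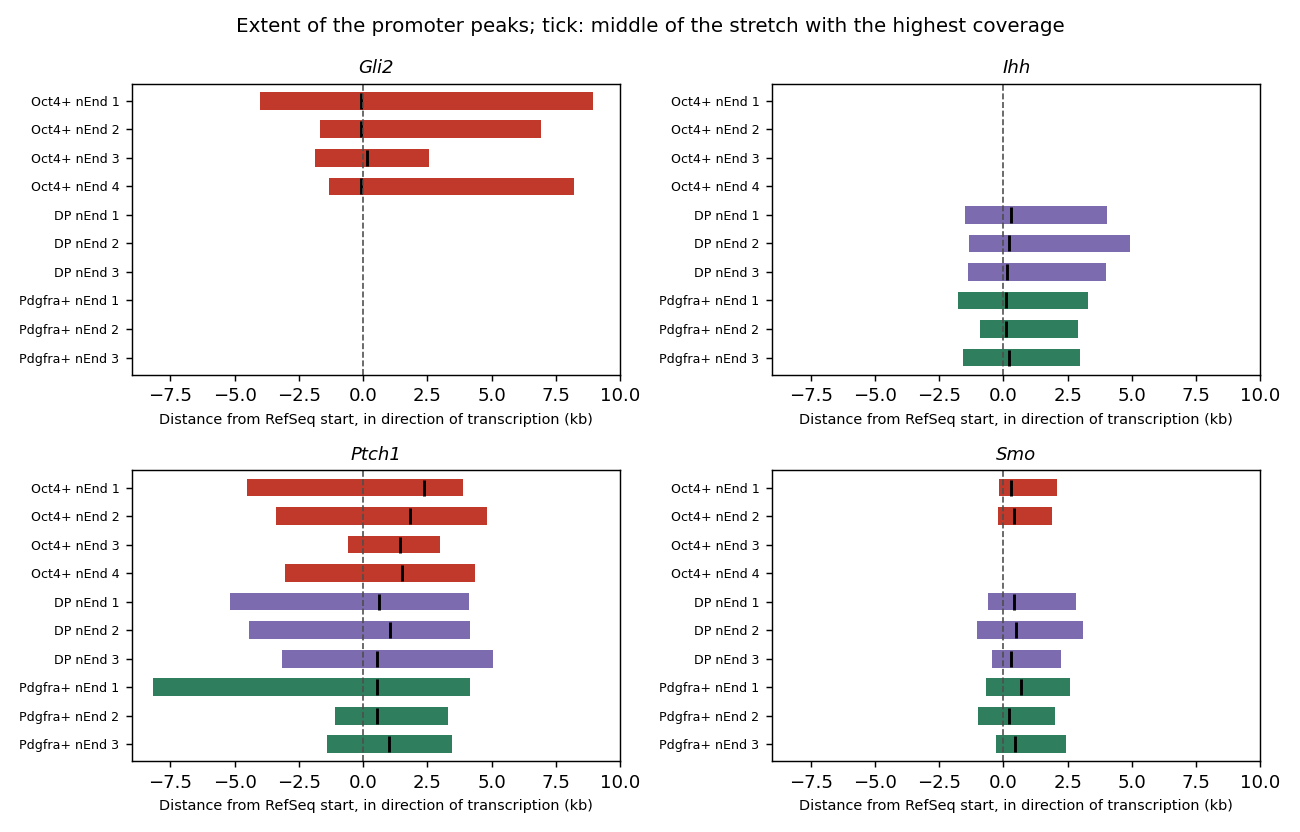
Extent of the promoter peaks of *Gli2*, *Ihh*, *Ptch1* and *Smo* in the 10 libraries (1 row each), in kb from the RefSeq start in the direction of transcription (dashed line). Bars span the peak and are coloured by population, the black tick is the middle of the stretch with the highest coverage, and an empty row has no promoter peak. The *Gli2* bars of Oct4+ nEnd reach up to 8960 bp into the gene, and the *Ptch1* ticks lie farther downstream in Oct4+ nEnd than in the other 6 libraries.

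*Sufu* (ENSMUSG00000025231.17, chr19:46396896-46488804, plus strand), which restrains the GLI proteins, was marked in all 10 libraries. Its percentiles were 84.0, 70.7, 44.8 and 41.3 in Oct4+ nEnd replicates 1 to 4, 88.1, 87.6 and 87.0 in DP nEnd, and 93.1, 64.9 and 86.5 in Pdgfra+ nEnd. Every DP nEnd library was above every Oct4+ nEnd library, while Pdgfra+ nEnd replicate 2 lay within the Oct4+ nEnd range. By highest coverage all 6 DP and Pdgfra+ nEnd values, 79.0 to 89.8, were above the 4 of Oct4+ nEnd, 44.9 to 70.9. In Pdgfra+ nEnd replicate 2 the region was called as 2 peaks, of 2141 and 1647 bp, and the higher is used. With 50% of the window covered the *Sufu* difference of Oct4+ minus Pdgfra+ nEnd went from −21.3 to 0.326 points and that of DP minus Pdgfra+ nEnd from 6.07 to 27.7. The sign of the latter also turned, to −8.33 by highest coverage and to −2.21 without Pdgfra+ nEnd replicate 2. A *Sufu* promoter peak also covered the promoter of *Actr1a*, a dynactin subunit gene read in the opposite direction, in 10 of 10 libraries, so the mark cannot be assigned to *Sufu* alone.

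Of the transcription factors, *Gli2* (ENSMUSG00000048402.14, chr1:118834132-119053619, minus strand), the main activator of the pathway, had the highest percentiles in Oct4+ nEnd. In Oct4+ nEnd replicates 1 to 4 its peak lay at the 93.2, 88.3, 71.1 and 85.1 percentiles by total signal, with a mean of 84.4 ± 9.48 (SD, n = 4) and 88.9 ± 4.08 without replicate 3 (SD, n = 3). DP and Pdgfra+ nEnd were at 0 in all 6 libraries. The total signals were 171938, 123844, 35988 and 95995, which is 5.81, 5.54, 2.29 and 4.13 times the lowest of any peak in the same library. *Gli2* peaks in Oct4+ nEnd thus lay above the limit of calling in each library, by the smallest margin in replicate 3.

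The *Gli2* peak was broad and low. It was 12962, 8610, 4432 and 9568 bp wide in replicates 1 to 4, at the 98.2, 97.9, 74.7 and 95.5 percentiles by width. By highest coverage, 53, 49, 20 and 39, it lay at only the 41.3, 44.9, 37.6 and 52.1 percentiles. Coverage per base, total signal over width, put it at the 27.6, 40.6, 52.3 and 33.4 percentiles. All 4 libraries show the same shape, in which the rank by total signal comes with a rank by width above 74 and a rank by height near the middle. The point of highest coverage lay 89, 89 and 82 bp upstream of the RefSeq start in replicates 1, 2 and 4 and 138 bp downstream in replicate 3. The peak reached 2557 to 8960 bp into the gene and 1348 to 4001 bp upstream, and overlapped the windows of 2 of the 3 annotated TSSs. The third TSS, at position 118982588 inside the gene, was not under a peak. A lincRNA start, of *Gm26831*, lay under the peak in 1 of the 4 libraries.

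Around *Gli2* the nearest peak in the other populations was far away. It lay 363247 to 365331 bp from the 5′ end of *Gli2* in DP nEnd, at the promoter of *Inhbb*, and 424134 to 449748 bp in Pdgfra+ nEnd. No peak fell anywhere in the *Gli2* gene in these 6 libraries. The consensus peaks gave the same picture, with a *Gli2* peak of 12962 bp in Oct4+ nEnd and none in DP or Pdgfra+ nEnd. For *Ihh* they held a peak of 6430 bp in DP nEnd, a peak of 5057 bp in Pdgfra+ nEnd and none in Oct4+ nEnd.

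**Figure D3:**
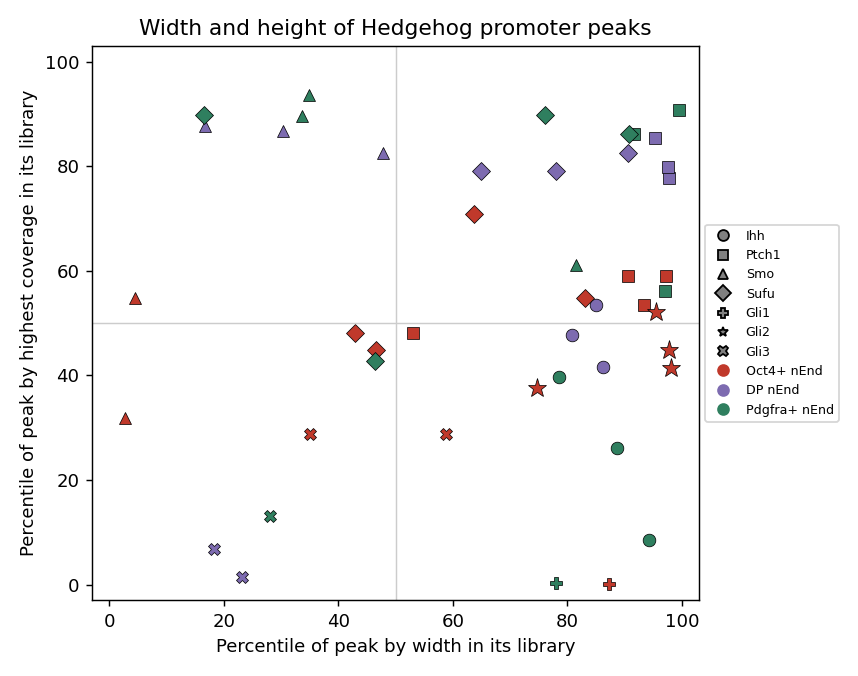
Percentile of each member promoter peak by width (horizontal axis) against its percentile by highest coverage (vertical axis), both within the library (0 to 100), with marker shape for the gene and colour for the population. *Gli2* (stars) and *Ihh* (circles) lie to the right and in the lower or middle range, and *Smo* (triangles) is mostly to the left and high, except in Pdgfra+ nEnd replicate 2, at the 81.5 percentile by width. *Sufu* has 11 points because 1 library holds 2 peaks.

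*Gli1* (ENSMUSG00000025407.7, chr10:127329882-127341974, minus strand), a direct target of the pathway, had a promoter peak in Oct4+ nEnd replicate 1 and in Pdgfra+ nEnd replicate 1 only, at the 16.9 and 5.35 percentiles by total signal. These peaks were 6790 and 5031 bp wide but their highest coverage was 13 and 20, at the 0.164 and 0.209 percentiles, among the lowest of their libraries. Both libraries had the most peaks of their population, 9144 and 10545. In the other 8 libraries the nearest peak was 28501 to 29470 bp away, at *Mars*.

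*Gli3* (ENSMUSG00000021318.15, chr13:15463235-15730026, plus strand), known mainly as the repressor form, was weakly marked. It lay at 42.1 and 39.5 in Oct4+ nEnd replicates 1 and 2, at 3.97 and 11.7 in DP nEnd replicates 1 and 2 and at 19.1 in Pdgfra+ nEnd replicate 1. It was at 0 in the other 5 libraries, and the populations overlapped. The marked Oct4+ nEnd libraries were above every marked library of the other populations, a comparison that leaves out the libraries at 0. With equal numbers of peaks (the 3477 strongest) *Gli3* kept no peak in any library. Starts of the non-coding genes *Gm6556* and *Gm26645* lay under its peak in 5 and 3 of the 5 libraries.

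Ranked by mean percentile, the members in Oct4+ nEnd were *Ptch1* (88.0), *Gli2* (84.4), *Sufu* (60.2), *Gli3* (20.4), *Smo* (15.1) and *Gli1* (4.22), and each gene overlapped its neighbour in this order. Without replicate 3 the order was the same, at 94.1, 88.9, 65.3, 27.2, 20.2 and 5.62, and *Gli2* no longer overlapped *Sufu*. In DP nEnd the order was *Ptch1* (99.0), *Sufu* (87.6), *Ihh* (81.3), *Smo* (70.2) and *Gli3* (5.22), with no overlap between neighbours. In Pdgfra+ nEnd it was *Ptch1* (99.0), *Sufu* (81.5), *Smo* (80.3), *Ihh* (62.6), *Gli3* (6.36) and *Gli1* (1.78), where *Ptch1* stood clear of *Sufu*, *Smo* of *Ihh* and *Ihh* of *Gli3*, while *Sufu* overlapped *Smo* and *Gli3* overlapped *Gli1*. This order rests on total signal, which favours wide peaks. Per base, *Gli2* in Oct4+ nEnd averaged the 38.5 ± 10.6 percentile and *Ptch1* 74.5 ± 3.64 (SD, n = 4 each), and these 2 genes, which overlapped by total signal, did not overlap. The number of members marked was 4.25 ± 1.5 per Oct4+ nEnd library (SD, n = 4), 4.67 ± 0.577 per DP nEnd library and 4.67 ± 1.15 per Pdgfra+ nEnd library (SD, n = 3 each), where 31.6%, 41.8% and 41.3% of all protein-coding genes were marked on average. Without replicate 3 the Oct4+ nEnd values were 4.67 ± 1.53 members (SD, n = 3) and 36.0% of all genes.

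By percentile, *Gli2* was the 1 member with every Oct4+ nEnd library above every DP nEnd library (4.62% of 10603 genes marked in at least 1 library of the pair) and above every Pdgfra+ nEnd library (4.62% of 11614 genes). In DP nEnd 4 members (*Ihh*, *Ptch1*, *Smo* and *Sufu*) lay wholly above Oct4+ nEnd, with 25.6% of genes. In Pdgfra+ nEnd 3 (*Ihh*, *Ptch1* and *Smo*) did, with 18.8% of genes. *Ihh* was wholly higher in DP than in Pdgfra+ nEnd (2.78% of 11222 genes) and *Smo* wholly higher in Pdgfra+ than in DP nEnd (4.81%). When peaks were ranked by highest coverage, *Sufu* took the place of *Smo* in the latter. The counts against Oct4+ nEnd were the same without Oct4+ nEnd replicate 3, when 9.33% and 8.28% of genes lay wholly higher in Oct4+ nEnd than in DP and Pdgfra+ nEnd. The latter share was 8.74% without Pdgfra+ nEnd replicate 1. Without Pdgfra+ nEnd replicate 2 *Sufu* too lay wholly higher in Pdgfra+ than in Oct4+ nEnd (4 members, with 30.5% of genes). Without Pdgfra+ nEnd replicate 1 *Sufu* was also wholly higher in DP nEnd (2 members, with 27.1% of 9905 genes), and without Pdgfra+ nEnd replicate 2 *Ptch1* was also wholly higher in Pdgfra+ nEnd (2 members, with 15.3% of 11222 genes). Without any other library 1 member lay wholly higher in each direction, with 3.06% to 5.61% of genes for DP nEnd and 5.51% to 11.9% for Pdgfra+ nEnd.

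The 6 members with an entry in the RefSeq promoter table (*Ihh*, *Ptch1*, *Smo*, *Sufu*, *Gli2* and *Gli3*) were set among all 32841 promoters of the table, each 300 bases from 250 before to 50 after the start. All 6 had more than the median GC content (52.7%) and more than the median of 7 CpGs. *Ptch1* held 47 CpGs, *Gli3* 39, *Ihh* 30, *Gli2* 28, *Smo* 17 and *Sufu* 12. By the ratio of observed to expected CpG, *Gli3* and *Ptch1* lay at the 98.6 and 97.7 percentiles of all promoters. The ratio was 1.09 for *Ptch1*, and 0.830 for *Gli2* and 0.774 for *Ihh*, at 81.6 and 77.0. It was 0.504 for *Smo* and 0.506 for *Sufu*, at the 58.3 and 58.5 percentiles. *Gli2* and *Ihh*, with opposite marks in Oct4+ and DP nEnd, were neighbours in CpG content, and *Gli3*, with the highest ratio, was weakly marked. How the mark relates to CpG content was not tested.

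**Figure D4:**
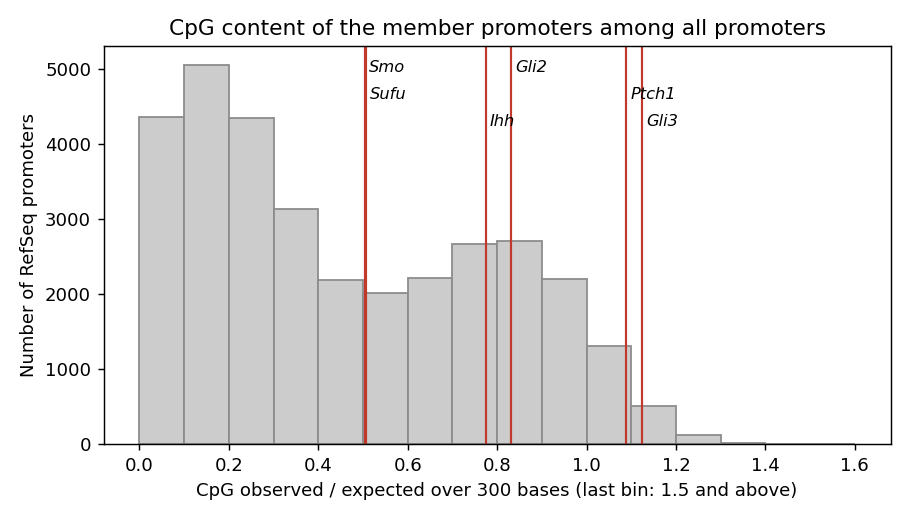
Number of RefSeq promoters (vertical axis) by their ratio of observed to expected CpG over 300 bases (horizontal axis, bins of 0.1), with red lines at the 6 members that have an entry. *Gli2* (0.830) and *Ihh* (0.774) lie next to each other above the median of 0.384, and *Ptch1* and *Gli3* lie in the upper tail.

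Both strands of these 300 bases were searched for 3 exact words: the GLI motif GACCACCCA, held by 0.253% of all promoters, the octamer ATGCAAAT, to which OCT4 binds, held by 1.74%, and the GATA word AGATAA, held by 11.2%. None of the 6 members held any of them, which says only that these letters are not in these windows.

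The genes with the pattern nearest to that of *Gli2* were found over the 10 libraries by the mean absolute difference in percentile by total signal. The 5 nearest protein-coding genes were *Fgf4* (2.27), which encodes an FGF made by the Epi, *Vegfc* (2.50), *Trh* (2.66), *Ccnd1* (3.17) and *Gm45717* (3.21). *Fgf4* lay at 94.7, 90.2, 83.2 and 92.2 in Oct4+ nEnd and at 0 in the other 6 libraries. *Ccnd1* lay at 85.0, 82.5, 63.2 and 86.7 in Oct4+ nEnd, at 8.18 in DP nEnd replicate 2 and at 0 in the other 5. These genes share with *Gli2* a high rank in Oct4+ nEnd and little or no peak elsewhere. The 10 values behind each difference share libraries, and no test was made.

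The wider pathway was read at 35 further genes in 5 roles, also chosen with earlier results of these data known. Of these, 27 were marked in at least 1 library and 5 in all 10. The number marked per library was 6 to 17 in Oct4+ nEnd, 14 to 17 in DP nEnd and 13 to 25 in Pdgfra+ nEnd. The shares of all protein-coding genes marked were 18.3% to 43.5%, 39.1% to 44.8% and 33.5% to 50.8%. The highest count, 25 of 35, came from Pdgfra+ nEnd replicate 1, the library that also had the largest share of all genes, 50.8%. None of the 5 genes of ligand processing and release was marked in Oct4+ or DP nEnd, and 2 (*Disp1* and *Scube2*) were marked in Pdgfra+ nEnd replicate 1. *Hhip*, an inhibitor that binds the ligands and is known as a pathway target, was marked in none of the 10 libraries, and of the listed targets *Foxf1* and *Foxl1* were not marked either. *Mycn*, a listed target, lay at 92.1 to 99.3 in all 10. *Bcl2*, also a listed target, was at 0 in every Oct4+ nEnd library. It lay at 11.8, 12.4 and 5.73 in DP nEnd and at 23.5, 0 and 16.3 in Pdgfra+ nEnd.

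**Figure D5:**
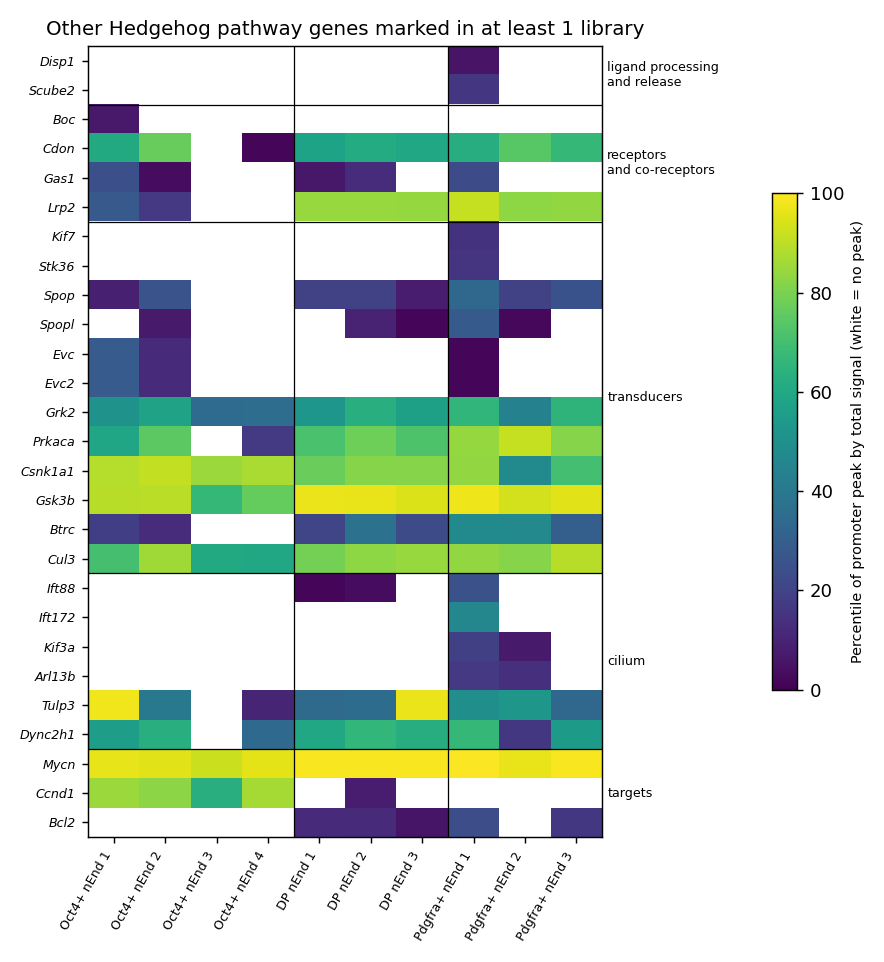
Percentile by total signal of the promoter peak of the 27 further Hedgehog pathway genes marked in at least 1 library (rows, grouped by role) in the 10 libraries (columns, grouped by population), with colour from 0 to 100 and white for no peak. *Ccnd1* is coloured in the 4 Oct4+ nEnd libraries and 1 DP nEnd library, *Lrp2* is high in the 6 DP and Pdgfra+ nEnd libraries, and *Mycn* is above 92 throughout.

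Differences in percentile between populations were tested with limma across the 10443 genes marked in at least 2 libraries, which include 21 of the 35 (3 receptors and co-receptors, 10 transducers, 5 cilium genes and 3 targets). Among the transducers *Evc* and *Evc2* share 1 peak and have the same values. Of the 21, 1 (*Ccnd1*) was higher in Oct4+ than in DP nEnd (1.64% of all genes tested) and 2 (*Lrp2* and *Gsk3b*) were higher in DP nEnd (8.23%). Against Pdgfra+ nEnd, 1 (*Ccnd1*) was higher in Oct4+ nEnd (4.18%) and 4 (*Lrp2*, *Prkaca*, *Btrc* and *Gsk3b*) were higher in Pdgfra+ nEnd (13.5%). Both comparisons use the same Oct4+ nEnd libraries. *Ccnd1* was marked in 1 library outside Oct4+ nEnd and so entered the test only through the population where it is high, and its call is no support. The median difference of the 21 genes was −6.84 percentile points for Oct4+ minus DP nEnd and −8.76 for Oct4+ minus Pdgfra+ nEnd, beside −9.32 and −9.40 over all genes tested. Between DP and Pdgfra+ nEnd limma called 0 of the 21 genes (0.0766% of all genes higher in DP nEnd and 0% higher in Pdgfra+ nEnd), and the median difference was −1.39, beside −0.170 over all genes. At an unadjusted p under 0.05 it gave 270 of the 10443 genes in this pair and 0 of the 21. When every library kept the same number of peaks (5641 genes tested) the split of all genes between higher and lower in Oct4+ nEnd moved from 171 and 859 to 820 and 1169 against DP nEnd, and from 436 and 1407 to 1194 and 1459 against Pdgfra+ nEnd. Between DP and Pdgfra+ nEnd it moved from 8 and 0 to 73 and 60. Single libraries moved these counts as well. The 171 genes higher in Oct4+ than in DP nEnd became 65 to 74 without 1 DP nEnd library, 112 without Oct4+ nEnd replicate 4 and 292 without Oct4+ nEnd replicate 3. The 436 against Pdgfra+ nEnd became 264 to 284 without Oct4+ nEnd replicate 4 or Pdgfra+ nEnd replicate 2 or 3, and 633 at most, without Oct4+ nEnd replicate 3. The 8 higher in DP than in Pdgfra+ nEnd became 38 without Pdgfra+ nEnd replicate 1, 14 without Pdgfra+ nEnd replicate 2 and 3 without Oct4+ nEnd replicate 4 or DP nEnd replicate 1 or 2. *Ccnd1* was called against both populations without any 1 library.

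*Ccnd1*, the gene for cyclin D1, had a mean percentile 76.6 points higher in Oct4+ than in DP nEnd and 79.3 higher than in Pdgfra+ nEnd, and each of the 4 Oct4+ nEnd libraries was above all of the other 6. By highest coverage limma did not call it against either population. *Lrp2*, which encodes megalin, an endocytic receptor that takes up SHH, lay at 27.9, 16.5, 0 and 0 in Oct4+ nEnd. DP nEnd had 84.8, 84.7 and 84.3, and Pdgfra+ nEnd 91.3, 82.9 and 83.6, so Oct4+ nEnd did not overlap the others. The difference was −73.5 points against DP nEnd (SE 11.2, limma adjusted p = 0.000652) and −74.8 against Pdgfra+ nEnd (limma adjusted p = 0.000317). Without Oct4+ nEnd replicate 3 the differences were −69.8 and −71.1 points. With 50% of the window covered the call against Pdgfra+ nEnd was lost. PrE and Epi markers moved with these differences, as given above, and their part in them was not tested.

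The other genes called were 2 kinase genes and 1 ubiquitin ligase gene whose products act on the GLI proteins. *Gsk3b*, a kinase of GLI proteins, lay at 66.6 to 89.6 in Oct4+ nEnd and at 93.0 to 97.5 in the other 6 libraries. It differed by −15.8 points against DP nEnd (SE 4.78, limma adjusted p = 0.0474) and by −14.9 against Pdgfra+ nEnd (limma adjusted p = 0.0422). *Prkaca*, the catalytic subunit of protein kinase A, lay at 58.9, 74.9, 0 and 17.1 in Oct4+ nEnd and at 84.2, 91.2 and 82.0 in Pdgfra+ nEnd, a difference of −48.0 (SE 14.8, limma adjusted p = 0.0342). *Btrc*, whose product targets GLI proteins for degradation or processing, lay at 18.4, 12.5, 0 and 0 in Oct4+ nEnd and at 47.8, 47.0 and 30.2 in Pdgfra+ nEnd, a difference of −33.9 (SE 10.3, limma adjusted p = 0.0320). All 3 genes lost their calls by highest coverage. *Gsk3b* in both comparisons and *Btrc* lost theirs with the replicate number as a block, and *Gsk3b* in both comparisons and *Prkaca* with all genes marked in at least 1 library. *Btrc* and *Prkaca* were not called with normal scores, *Btrc* was not called with equal numbers of peaks, and *Gsk3b* was not called against DP nEnd when 50% of the window had to be covered. They also lost them when single libraries were left out. Without Oct4+ nEnd replicate 3 *Gsk3b* differed by −11.1 points against DP nEnd and by −10.2 against Pdgfra+ nEnd (limma adjusted p = 0.0516 and 0.0506), *Btrc* by −31.3 (limma adjusted p = 0.0577) and *Prkaca* by −35.5 (limma adjusted p = 0.0419). For *Gsk3b* in both comparisons and for *Btrc* the libraries were Oct4+ nEnd replicates 3 and 4, each DP and each Pdgfra+ nEnd library, and for *Prkaca* Oct4+ nEnd replicate 4 and each Pdgfra+ nEnd library. Without 1 library 19 or 21 of the further genes were tested, and 1 to 3 were higher in DP nEnd and 1 to 6 higher in Pdgfra+ nEnd than in Oct4+ nEnd. Over all genes tested the share higher ran from 2.49% to 20.8% for DP nEnd and from 6.25% to 25.1% for Pdgfra+ nEnd, and it was 18.2% in the fit without Oct4+ nEnd replicate 2, where 6 of 21 were called.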

How the data were processed

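H3K4me3 CUT&Tag was read in 10 sorted nEnd libraries, grouped by the population in their labels. Per the methods, the authors took coverage from BEDtools, used SEACR (stringent, with an IgG control) for the peaks of each library and DiffBind for consensus peaks. The submitters' processing notes name mm10, bcl2fastq 2.19.1, Bowtie2, SAMtools 1.12, deepTools and bedtools 2.26.0. Each deposited peak carries 2 signal values, the total and the highest coverage over the peak, with no scaling of libraries. From the deposited consensus lists only the positions were used. The files hold no read numbers. Depth is therefore unknown, and intervals of counting error were not computed. A deeper library can hold more peaks, and a gap within a region splits 1 peak into 2, which changes width and total signal.

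Promoter windows (1000 bp upstream to 100 bp downstream) were drawn at the 93513 TSSs that GENCODE release M21 (GRCm38) gives for 21938 protein-coding genes, without the mitochondrial genome. Signal was used as the percentile within a library, and of several promoter peaks of a gene the highest counted. limma 3.58.1 (R 4.3.3; trend and robust) was fitted on the percentiles of genes marked in at least 2 libraries, all 10 libraries in 1 fit, with Benjamini-Hochberg adjustment over all genes tested and a threshold of 0.05. On simulated data, in which the added noise let 11629 genes pass the same filter (10443 in the real data), the fit recovered 93% of 100 genes shifted by 70 points and 6% of 100 shifted by 30, and called 3 unchanged genes for Oct4+ against DP nEnd and 2 for Oct4+ against Pdgfra+ nEnd. The genes shifted by 70 had low mean percentiles and all rose, while those shifted by 30 had middle means and went both ways. The rates thus differ in more than the size of the shift. The rest was computed in Python 3.11.15 with pandas 2.3.3, numpy 2.4.6 and matplotlib 3.10.9.

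The 8 genes, the 35 further genes and the marker lists were chosen with earlier results of these data known. Values are given for all 8, for the 4 further genes with the largest difference among those that pass limma in each pair (all if fewer) and for the 5 genes nearest to *Gli2*. *Disp1*, *Scube2*, *Hhip*, *Foxf1*, *Foxl1*, *Mycn* and *Bcl2* were named after their values were seen. Alternatives were a symmetric window reaching 2500 bp from the TSS, at least 50% of the window under the peak, equal numbers of peaks (the 3477 strongest), ranks by highest coverage, normal scores, other minimum numbers of marked libraries, a replicate block and leaving out each library. Libraries of the same number were taken not to be paired. RNA, other histone marks and reads were not analysed here.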

Additional observations from a re-analysis of the deposited data

Results flagged for a closer look

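*Gli1* stood out in Oct4+ nEnd because 1 of 4 libraries lay far from the other 3. Replicate 1 had a promoter peak at the 16.9 percentile by total signal and at the 0.164 percentile by highest coverage, and replicates 2, 3 and 4 had none. With 3 values of exactly 0 any peak in a single library meets Dixon's criterion. It was applied to 16 sets of 4 Oct4+ nEnd values, of which 2 met it, both for *Gli1*. Chance alone meets it in about 1 in 20 sets of values without ties, a rate that does not apply to sets with so many zeros.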

How the results depend on the processing

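The contrast of *Gli2* and *Ihh* by presence, and the 1 member higher in Oct4+ nEnd by percentile, held under each alternative run. A gene that meets either rule must also meet it when a library is left out or with the replicate block. These alternatives could therefore not remove a member, and nothing is read from them on this point. *Smo* joined *Ihh* (2 members marked in every DP, or every Pdgfra+, nEnd library and in no Oct4+ nEnd library) when 50% of the window had to be covered and with equal numbers of peaks. Equal numbers of peaks also gave means of 3 members marked per Oct4+ nEnd library, 4 per DP nEnd library and 4 per Pdgfra+ nEnd library. Leaving out 1 library gave 1 to 2 members wholly higher in DP than in Pdgfra+ nEnd (2 without Pdgfra+ nEnd replicate 1, with 27.1% of all genes) and 1 to 2 wholly higher in Pdgfra+ nEnd (2 without Pdgfra+ nEnd replicate 2, with 15.3% of all genes). By highest coverage *Sufu* replaced *Smo* as the 1 member wholly higher in Pdgfra+ than in DP nEnd. The *Smo* difference of DP minus Pdgfra+ nEnd turned from −10.1 to 4.25 points by highest coverage. The cause was not tested.

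Of the further genes tested by limma (21, but 22 with the window of 2500 bp, 27 and 16 with genes marked in at least 1 and 5 libraries, 11 with equal numbers of peaks and 19 without Pdgfra+ nEnd replicate 1 or 2), the 2 higher in DP than in Oct4+ nEnd became 1 with 50% cover, by highest coverage and with genes marked in at least 1 library, and 1 to 3 without 1 library. The 1 higher in Oct4+ nEnd became 0 by highest coverage against both populations, and against Pdgfra+ nEnd 2 with equal numbers of peaks or genes marked in at least 5 libraries and 1 to 2 without 1 library. The 4 higher in Pdgfra+ nEnd became 1 by highest coverage, 2 with genes marked in at least 1 library and 1 to 6 without 1 library. With the replicate number as a block, 1 gene was higher in DP and 2 in Pdgfra+ nEnd than in Oct4+ nEnd. Libraries of the same number correlated at −0.174 to 0.225 over 9 pairs, 2 of them over 0.1, and 5 of 9 correlated best with their own number. These values cannot settle whether libraries of the same number are paired. In all, 212 of the count and mean values under an alternative were within the limits set for no change and 29 moved, and of the 256 differences at single members 242 were within the spread between libraries. Some of these values could not move, such as the differences of *Shh*, which had no peak in any library, so the counts are no measure of robustness. The sign was opposite to the reported one in 11 of the 256, over 5 members, of which *Smo* is the 1 whose populations did not overlap. With an unknown depth, a gene without a peak may carry the mark below the limit of calling.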

Other observations

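Markers of 2 other lineages were also read. Of 5 trophectoderm markers (*Cdx2*, *Elf5*, *Eomes*, *Hand1* and *Tfap2c*), 1 to 2 were marked per Oct4+ nEnd library, 1 to 2 per DP nEnd library and 0 to 2 per Pdgfra+ nEnd library, with summed percentiles of 46.1 to 124.0, 19.8 to 58.5 and 0 to 66.2. They did not go one way: *Tfap2c* was at 80.4, 76.2, 46.1 and 56.6 in Oct4+ nEnd and at 0 in the other 6 libraries, while *Cdx2* was at 0 in Oct4+ nEnd and at 9.83 and 24.7 in 2 DP nEnd libraries and 50.6 and 24.2 in 2 Pdgfra+ nEnd libraries. *Tfap2c* thus had, like *Gli2*, a promoter peak in every Oct4+ nEnd library and in no other. Of 5 mesoderm markers (*T*, *Mixl1*, *Mesp1*, *Hand2* and *Tbx6*), 0 were marked in any Oct4+ or DP nEnd library and 0 to 1 per Pdgfra+ nEnd library.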
